A study of Mus musculus with 10 samples.

Results

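MHC class II presentation was followed through 8 genes in mouse kidney. They were chosen by name, as the chains of the class II molecules I-A and I-E (H2-Aa, H2-Ab1, H2-Eb1), the peptide-exchange factor H2-DM (H2-DMa, H2-DMb1), the invariant chain (Cd74), the transactivator (Ciita) and the protease cathepsin S (Ctss). All 8 were in the authors' deposited table, as 19 of its 85107 transcripts, among 27876 gene symbols in all. For each gene the values are those of its most abundant transcript, which was a protein-coding one for each of the 8. RNA came from whole kidneys of wild-type mice taken on day 14. The 2 groups were 5 mice given vehicle and 5 given quinolinic acid, a tryptophan breakdown product, in their drinking water at 0.5 g/L, all under 1 batch label. The series' design text says that the sequenced mice were picked as representative of their group, without giving the criterion. The sources used here give no strain, age or sex, nor whether injury had been induced, and no label says whether a replicate pools animals.

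Class II molecules are surface proteins of an alpha and a beta chain that show peptides from endosomes to CD4+ T cells. In the endoplasmic reticulum the invariant chain fills the peptide groove and steers the complex to endosomes. There cathepsin S trims the invariant chain to a short remnant, and H2-DM exchanges the remnant for other peptides. Dendritic cells, macrophages and B cells make these proteins constitutively, and many other cells, tubular epithelium included, can be brought to make them by interferon-gamma. CIITA, recruited by RFX, CREB and NF-Y at the conserved X, X2 and Y boxes of the promoters, switches the genes on together.

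The boxes that CIITA's partners bind are shown because class II genes are known to share them. RefSeq promoter windows (GRCm38.p6, 250 bases before to 50 after the start) were matched for 5 of the 8 genes, and H2-Ab1, Cd74 and Ciita had no entry. Capitals mark a form of the X box (AG, any pair of bases, AC, any base, then GATG), TGACG, the core of the X2 box, and ATTGG, the core of the Y box, each searched on both strands. Runs of 60 bases, aligned on the Y box, come from H2-Aa (chr17:34287857-34287916, minus strand), H2-Eb1 (chr17:34305763-34305822, plus strand) and the related beta chain gene H2-Eb2 (chr17:34325530-34325589, plus strand), all on mouse build GRCm38.p6.

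H2-Aa: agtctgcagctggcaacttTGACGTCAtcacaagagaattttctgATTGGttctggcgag
H2-Eb1: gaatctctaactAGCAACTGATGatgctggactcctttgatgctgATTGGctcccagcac
H2-Eb2: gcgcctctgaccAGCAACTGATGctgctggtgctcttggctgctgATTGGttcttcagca

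H2-Eb1 and H2-Eb2 carried the same X box letters with 33 bases from the first base of the X form to that of the Y box core, and the windows of both were identical at 40 of 60 positions. H2-Aa held TGACG on both strands as 2 overlapping matches and 1 Y box core, with no match to the X form as written. The neighbouring beta chain genes of H2-DM are shown over 30 bases that begin 45 bases before the Y box core, from H2-DMb1 (chr17:34153085-34153114) and H2-DMb2 (chr17:34145114-34145143), both on the plus strand, because these copies also share RNA sequence. The H2-DMb1 run lies before the RefSeq start but wholly inside an exon of GENCODE vM21, whose H2-DMb1 transcript begins farther upstream, while the other runs shown hold no vM21 exon bases.

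H2-DMb1: gaggtttacctAGTAACTGATGatgctagg
H2-DMb2: gaggtttacctattaaccgatgatgctagg

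These runs differed at 2 of 30 positions, and at 9 of 60 when extended past the Y box core, and only the H2-DMb1 run matched the X form. Over all 32851 promoter windows, 0.968% held the X form, 20.8% the X2 core, 37.4% the Y core and 0.387% both the X form and the Y core. The last combination was found in H2-Eb1 and H2-DMb1 among the 5 genes. Of the windows of H2-DMa, 1 of 2 had a Y core, and that of Ctss had none of the 3 motifs. A match is a string of letters and not a measured binding site.

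For none of the 8 genes was a difference between the groups called in the authors' deposited likelihood-ratio test. At an adjusted p under 0.05 the count was 0 of 8, against 0.0215% of all genes (6 of 27876) and 0.0141% of all transcripts. At an unadjusted p under 0.05 it was also 0 of 8, against 5.12% of all genes and 4.09% of the 13115 genes with a mean of at least 1 CPM. CPM is a read count scaled to a total over all transcripts. Transcripts that share exons can each count the same read, so CPM is not a share of the sequenced reads. By sign, 5 of the 8 log2 fold changes were positive and 3 negative in the authors' deposited table, and they ran from -0.18 for Ciita to 0.16 for Ctss with a median of 0.03. Positive signs made up 71.8% of the genes at 1 CPM or more, with a median of 0.08, while 76.7% lay as close to 0 as the 8 genes did.

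The table holds a finished comparison, so no value per mouse can be given and the spread between mice enters only through the authors' model. Which group is the numerator is not named in its header. The sign of a fold change is therefore given as deposited and carries no direction relative to quinolinic acid. An approximate 95% interval was computed from each deposited fold change and likelihood ratio. All 8 intervals included 0. Their outermost bounds were -0.51 and 0.58 on the log2 scale. In whole kidney, a change in the number of class II-bearing cells and a change in RNA per cell could not be told apart.

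**Figure D1:**
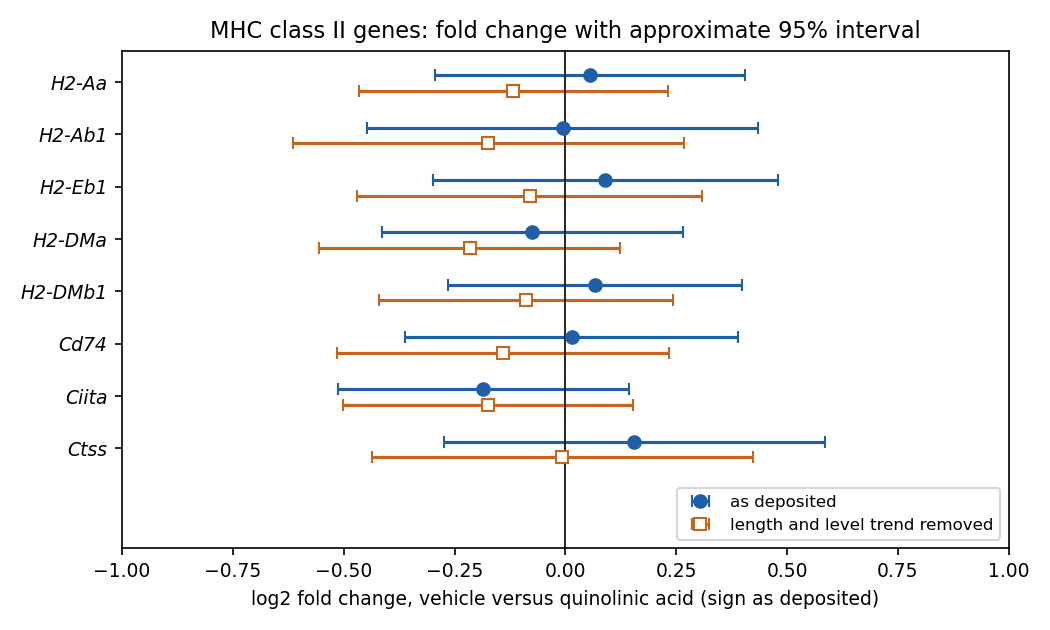
Log2 fold change of each of the 8 MHC class II genes (horizontal axis, sign as deposited) with its approximate 95% interval, as deposited (filled circles) and with the trend on transcript length and level removed (open squares). All 16 intervals cross 0, and the squares all lie below 0 while 5 of the 8 circles lie above it.

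For the classical chains the fold changes lay close to 0. H2-Ab1, the beta chain of I-A (chromosome 17, 34263209 to 34269419, build mm10), averaged 253 CPM, and its log2 fold change was -0.01 (95% interval -0.45 to 0.43), with an adjusted p of 1 by the likelihood-ratio test of the authors' deposited table. H2-Aa, its alpha chain partner (chromosome 17, 34282744 to 34287823, minus strand), averaged 246 CPM with 0.06 (-0.29 to 0.40) in the authors' deposited table. H2-Eb1, the beta chain of I-E (chromosome 17, 34306017 to 34316199), averaged 260 CPM with 0.09 (-0.30 to 0.48) in the authors' deposited table. The adjusted p of H2-Aa and H2-Eb1 in that deposited likelihood-ratio test was 0.988 and 0.959. Per kilobase of transcript these mean levels were close to one another, at 218 CPM for H2-Aa, 209 for H2-Ab1 and 222 for H2-Eb1, as means over all libraries with no spread available. The alpha chain gene of I-E, H2-Ea-ps, was not analysed here.

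The invariant chain gene Cd74 (chromosome 18, 60803848 to 60812646) was the most abundant of the 8 at a mean of 379 CPM, or 269 CPM per kilobase. In the authors' deposited table its fold change was 0.01 on the log2 scale (95% interval -0.36 to 0.39, adjusted p of 1 by the authors' likelihood-ratio test). The mean levels of the 8 genes summed to 1276 CPM. The fold changes of the invariant chain and the 3 classical chains ran from -0.01 to 0.09 on the log2 scale. Whether any of these fold changes differed from another could not be tested without values per library.

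The genes of H2-DM were expressed at lower levels, 12.2 CPM per kilobase for H2-DMa and 18.3 for H2-DMb1. H2-DMa (chromosome 17, 34122832 to 34139101) averaged 20.3 CPM, with a log2 value of -0.07 (95% interval -0.41 to 0.26) for the fold change in the authors' deposited table. H2-DMb1 (chromosome 17, 34153072 to 34160230) averaged 25.6 CPM with 0.07 (-0.26 to 0.40) in the authors' deposited table, and the adjusted p of both exceeded 0.9 in the authors' likelihood-ratio test (0.962 and 0.970). The partners thus had opposite signs with broadly overlapping intervals. Of the 50-base windows of the H2-DMb1 transcript, 27.2% also occurred in a transcript of H2-DMb2, so reads can be shared and its value is uncertain. For the other 7 genes no window was shared with another gene, except for 0.269% of those of Ciita, which come from an exon overlap with Dexi on the opposite strand.

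Cathepsin S had the largest positive value of the 8. Ctss (chromosome 3, 95526786 to 95556400) averaged 88.6 CPM, and its log2 fold change was 0.16 (95% interval -0.27 to 0.58) in the authors' deposited table, with an adjusted p of 0.903 by the authors' likelihood-ratio test. Ciita, the transactivator (chromosome 16, 10488279 to 10528418), had the most negative value, -0.18 (-0.51 to 0.14) in the authors' deposited table, with an unadjusted p of 0.269 and an adjusted p of 0.797 by the authors' likelihood-ratio test. It was also the scarcest, at 3.63 CPM or 0.605 CPM per kilobase. In order of mean level per kilobase the genes ran Cd74, H2-Eb1, H2-Aa, H2-Ab1, Ctss, H2-DMb1, H2-DMa and Ciita. Which neighbours in this order differ beyond the spread between mice could not be tested.

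**Figure D2:**
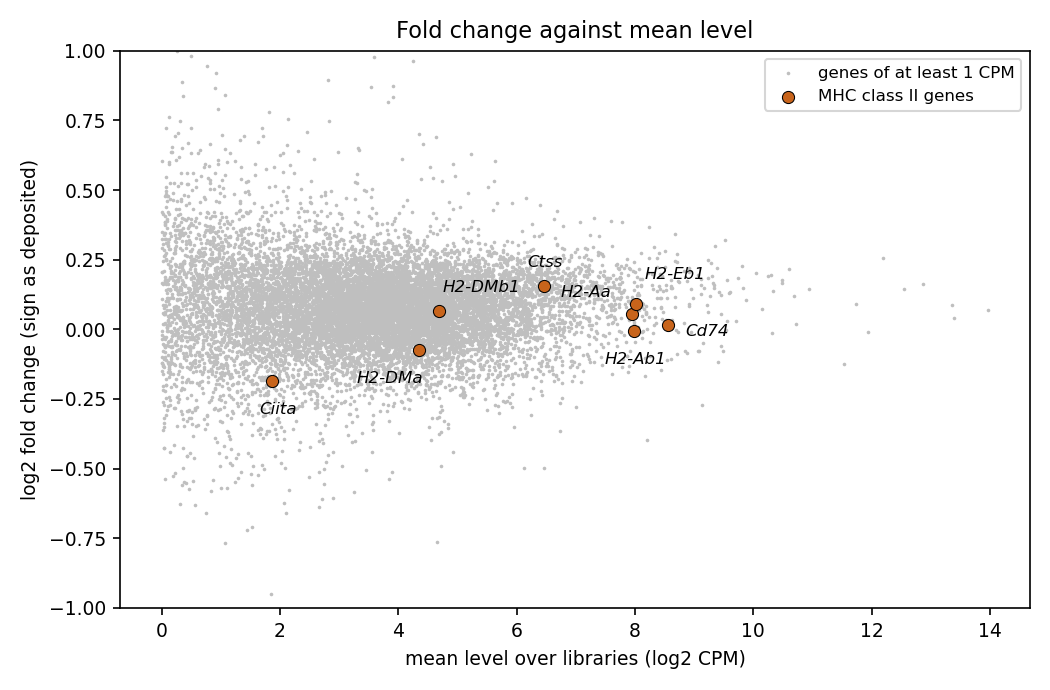
Log2 fold change (vertical axis, sign as deposited) against mean log2 CPM (horizontal axis) for 13115 genes of at least 1 CPM (grey; 28 lie beyond the axis) and the 8 MHC class II genes (orange). The 8 genes lie inside the grey cloud, between -0.18 and 0.16.

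The error of these fold changes depended on the gene. The approximate standard error ran from 0.17 for Ciita to 0.22 for H2-Ab1, against a median of 0.14 over genes of at least 1 CPM. Set beside genes within 2-fold of the same mean level, the error of Ctss was larger than that of 91.5% of 1591 genes. For H2-DMa and H2-DMb1 the shares were 90.4% and 88.8%, and for H2-Ab1 77.5% of 391 genes. Those of Cd74 (49.0%), H2-Aa (52.7%), Ciita (54.9%) and H2-Eb1 (64.8%) were nearer the middle. The source of the larger errors was not tested.

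**Figure D3:**
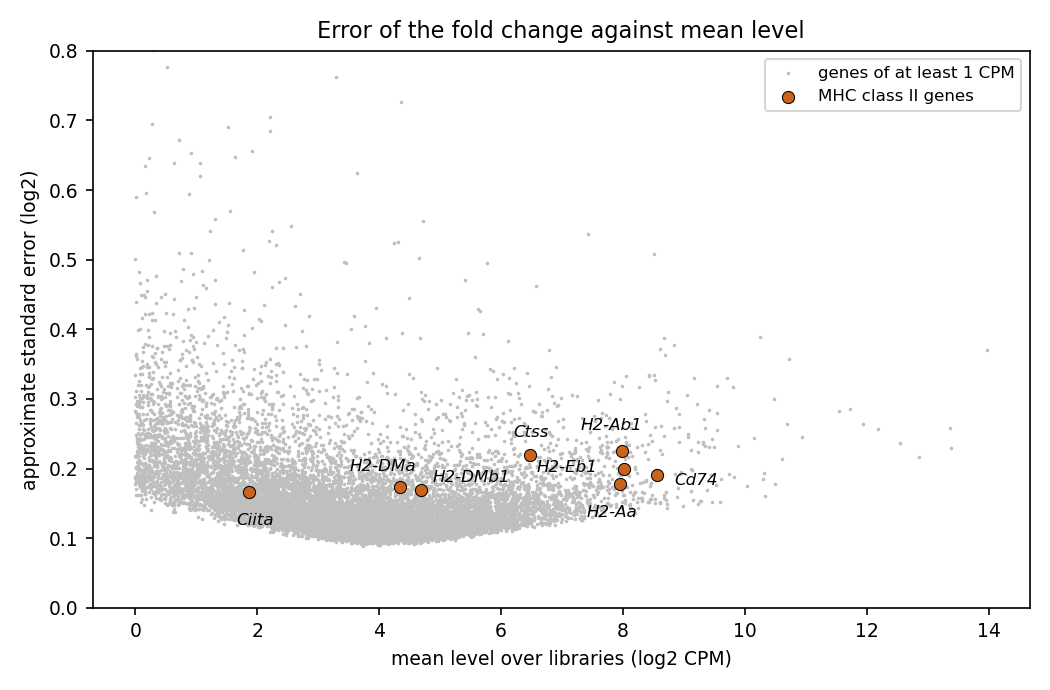
Approximate standard error of the log2 fold change (vertical axis) against mean log2 CPM (horizontal axis) for genes of at least 1 CPM (grey; 11 lie beyond the axis) and the 8 MHC class II genes (orange). Ctss, H2-DMa and H2-DMb1 lie in the upper part of the cloud at their level, and Cd74 and H2-Aa near its middle.

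Read transcript by transcript, the 8 genes gave no call either. Of the 19 transcripts none had an unadjusted p under 0.05 in the authors' likelihood-ratio test, and the smallest p was the 0.269 of Ciita. By sign 12 were positive and 7 negative in the authors' deposited table. The 4 H2-Aa transcripts spanned both signs, from -0.11 for a form that retains an intron (6.07 CPM) to 0.06 for a shorter coding form (235 CPM) in the authors' deposited table. For H2-Ab1 the 3 transcripts stayed between -0.01 and 0.01, and 2 of them were short forms annotated as retaining introns at 157 and 90.6 CPM in the authors' deposited table. The 3 Cd74 transcripts were all at 0.01, and both Ctss transcripts had identical values to the digits printed in the authors' deposited table. The 3 H2-DMb1 transcripts ran from 0.06 to 0.12 and both H2-DMa transcripts were negative, at -0.07 and -0.09, in the authors' deposited table. H2-Eb1 and Ciita had 1 transcript each. Transcripts of a gene share exons and hence reads, so they are not independent measurements.

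**Figure D4:**
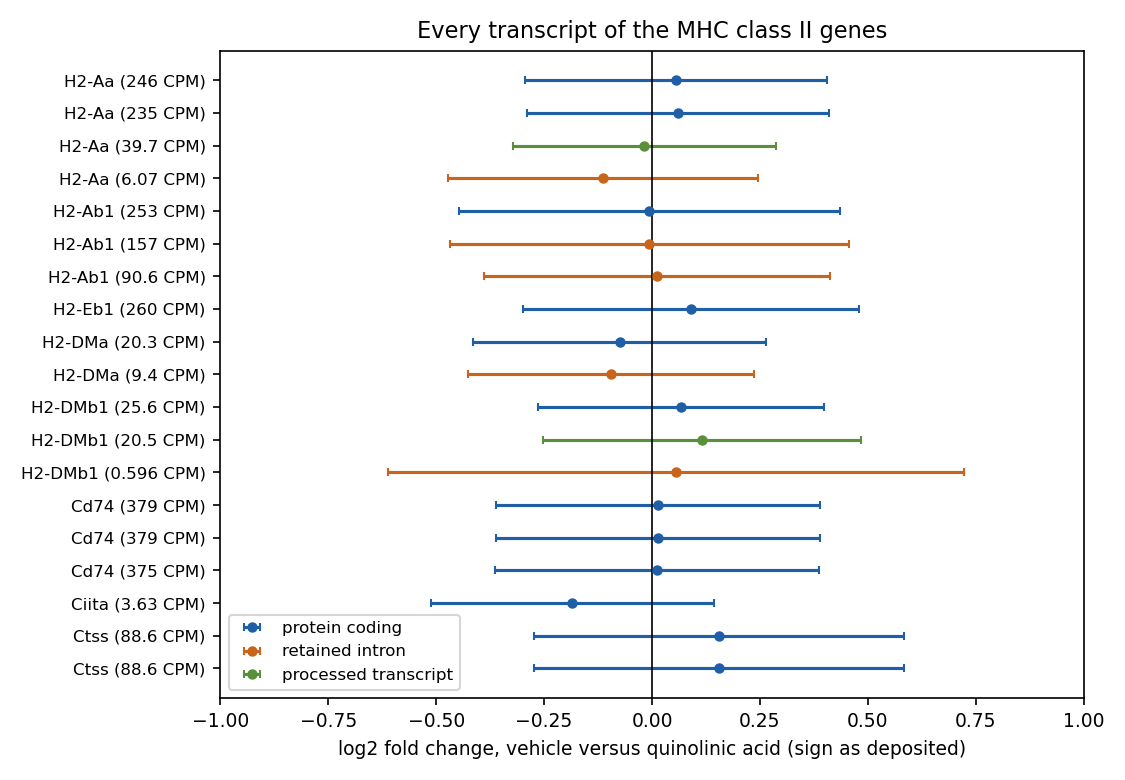
Log2 fold change with approximate 95% interval (horizontal axis, sign as deposited) for each of the 19 transcripts of the 8 genes, labelled with gene and mean CPM and coloured by GENCODE transcript type. Every interval includes 0, and the widest belongs to the H2-DMb1 form at 0.596 CPM.

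Some of the signs depended on a joint trend of fold change with transcript length and mean level. Apart from Ciita, at 6007 bases the longest of the 8 and also the scarcest, the transcripts were between 1128 and 1658 bases long. A loess trend on length and level together, fitted over genes of at least 1 CPM, predicted 0.14 to 0.17 for these 7 and -0.01 for Ciita. With the trend removed all 8 values were negative, from -0.22 for H2-DMa to -0.01 for Ctss, with a median of -0.13. None was called (adjusted p 1.00 for each from the approximate errors and Benjamini-Hochberg adjustment, unadjusted p 0.213 to 0.976). The signs of H2-Aa, H2-Eb1, H2-DMb1, Cd74 and Ctss therefore depended on this step, while those of H2-Ab1, H2-DMa and Ciita did not.

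The other class II chains were scarcer, and none was called. Of 5 listed gene symbols 4 were found, 2 of each sign, and the 2 of at least 1 CPM were both negative with the trend removed. Genes were matched by symbol, so the absence of the other does not show that it was not expressed. H2-DMb2, the second DM beta chain, stood at -0.09 and 7.58 CPM in the authors' deposited table, and its reads can be shared with H2-DMb1. H2-Oa and H2-Ob encode H2-DO, which restrains H2-DM in B cells, and stood at 0.09 and 0.07 with 0.974 and 1.67 CPM in the authors' deposited table. H2-Eb2 was at 0.334 CPM with -0.41 (95% interval -1.33 to 0.51) in the authors' deposited table.

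Regulators of the class II promoters were measured at all 11 genes listed, with 8 positive and 3 negative signs, a median of 0.06 (-0.00 with the trend removed) and no call. Rfxap, a subunit of the RFX complex, was the 1 gene with an unadjusted p under 0.05 in the authors' likelihood-ratio test, at a log2 fold change of 0.28 (0.02 to 0.55) and 5.41 CPM, and its adjusted p was 0.794. The other RFX subunits had smaller values in the authors' deposited table, 0.12 for Rfxank and -0.12 for Rfx5. The acetyltransferase Ep300 stood at -0.16, the histone methyltransferase Ezh2 at 0.22 and the deacetylase Hdac2 at 0.03 in the authors' deposited table. Of 9 genes of the interferon-gamma pathway 8 were positive, with a median of 0.03 over the 9 and no unadjusted p under 0.05 by the authors' test. With the trend removed, the median over the 7 of at least 1 CPM was -0.01. Socs1, which dampens this signalling, was at 0.17, the receptor genes Ifngr1 and Ifngr2 at 0.16 and 0.12 and the kinase Jak1 at 0.03 in the authors' deposited table. Ifng itself was listed at 0.0752 CPM, near the bottom of the table.

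Endosomal proteases and their partners leaned to the positive side. The sign was positive for all 11, against 71.8% of all genes of at least 1 CPM. The log2 values of the 11 had a median of 0.22 against 0.03 for the 8 class II genes and 0.08 for all genes of at least 1 CPM. None was called by the authors' likelihood-ratio test. Ifi30, the lysosomal thiol reductase that opens disulfide bonds of antigens, had the only unadjusted p under 0.05 among them (0.0181, adjusted p 0.788 by the authors' likelihood-ratio test), at 0.32 (0.05 to 0.58) and 37.4 CPM. These Ifi30 values belong to a form annotated as a processed transcript, not as a coding one. Legumain (Lgmn), which cuts antigens after asparagine, stood at 0.28 and 274 CPM, and cathepsin L (Ctsl), which trims the invariant chain in thymic epithelium, at 0.25 and 303 CPM in the authors' deposited table. Cathepsin F (Ctsf) was at 0.24, and the abundant cathepsins B (Ctsb, 389 CPM) and D (Ctsd, 354 CPM) at 0.15 and 0.14 in the authors' deposited table. Many of these genes are also expressed in tubular cells as part of general lysosomal breakdown. With the length and level trend removed, 9 of the 10 genes of at least 1 CPM were still positive, and the median was 0.07.

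Genes that handle class II molecules in the cell, such as the ubiquitin ligases March1 and March8 that remove them from the surface, showed no call among 9. March1 stood at 0.02 and 4.65 CPM and March8 at -0.03 in the authors' deposited table. Sppl2a, which degrades the last remnant of the invariant chain in the membrane, was at -0.05 in the authors' deposited table. The small GTPase Rab7 (0.13), the clathrin adaptor subunits Ap2m1 (0.16) and Ap1m1 (0.06) and the lysosomal membrane proteins Lamp1 (0.11) and Lamp2 (0.06) were positive in the authors' deposited table. None of the 7 costimulation and class II receptor genes was called, with a median of 0.08. Among them Cd86, which costimulates T cells, stood at -0.04 and 4.30 CPM, Icosl at 0.10, Cd40 at 0.11, Cd274 at 0.05 and the class II receptor Lag3 at 0.29 in the authors' deposited table. Neighbours of the class II genes on chromosome 17 had a median of 0.04 over 8 genes with no call. The peptide transporter Tap2 stood at 0.10, the immunoproteasome subunit Psmb9 at 0.11, Brd2 at 0.05 and Notch4 at 0.21 in the authors' deposited table. Over these 7 lists together, 59 genes gave 0 calls and 2 unadjusted p under 0.05 in the authors' likelihood-ratio test. Of all genes, 0.0215% were called and 5.12% had an unadjusted p under 0.05 in that test.

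**Figure D5:**
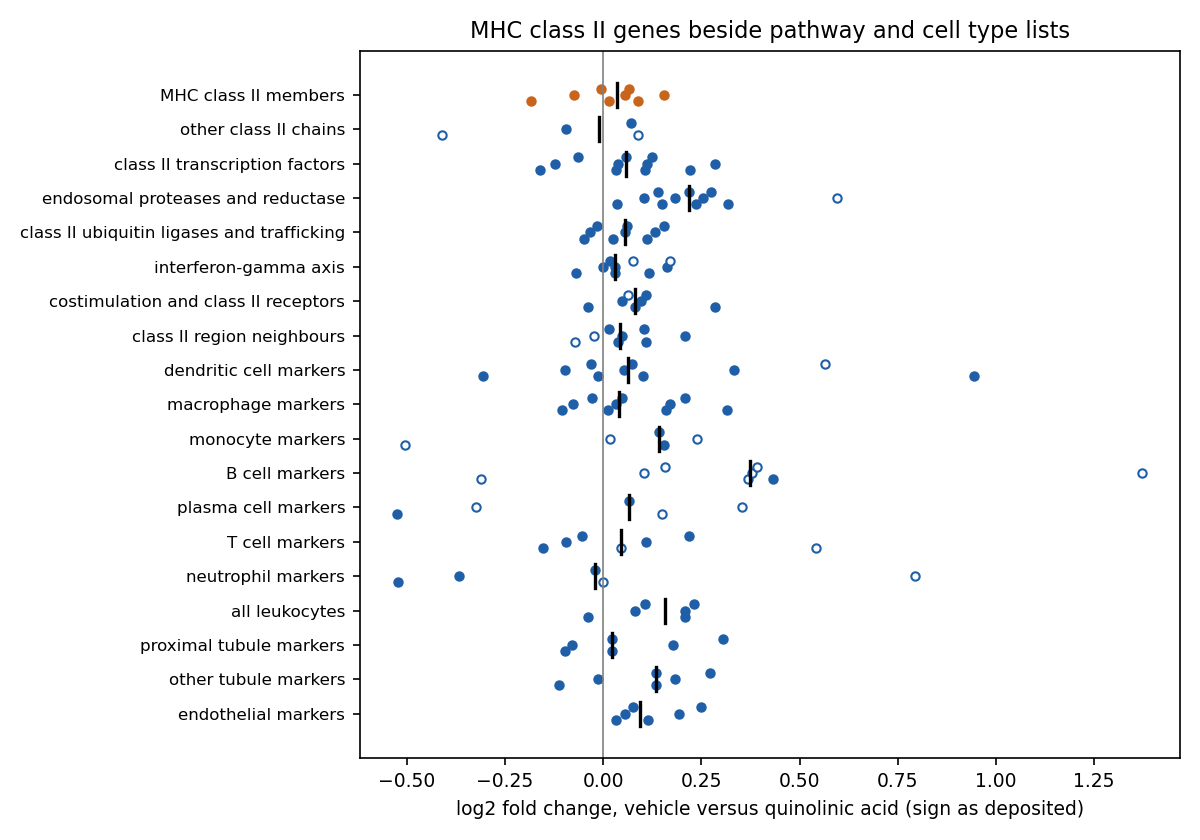
Log2 fold change (horizontal axis, sign as deposited) of every measured gene of the 8 MHC class II genes (orange) and of each pathway and cell type list (blue), with list medians as black bars and genes under 1 CPM as open circles. The class II genes lie between -0.18 and 0.16, while genes under 1 CPM such as Pax5 (1.37) lie farther out.

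Markers of cells that carry class II molecules were also examined. Kidney identity was plain from the tubular genes Slc34a1 (1430 CPM) and Umod (1274 CPM) in the authors' deposited table. All 10 macrophage markers reached 1 CPM, with a summed mean level of 473 CPM, 7 positive and 3 negative signs, a median of 0.04 (-0.02 with the trend removed) and no unadjusted p under 0.05 in the authors' test. Lyz2, a myeloid lysozyme, stood at -0.08, the complement genes C1qa and C1qc at 0.16 and 0.17, Cd68 at 0.21 and Cd14 at 0.32 in the authors' deposited table. The 10 dendritic cell markers summed to 32.1 CPM with a median of 0.06 (-0.09 with the trend removed). They had 6 positive and 4 negative signs (3 and 6 among the 9 of at least 1 CPM with the trend removed). Among them Ccr7, a homing receptor of migrating dendritic cells and of lymphocytes, averaged 1.71 CPM and stood at 0.94 (0.23 to 1.66), with an unadjusted p of 0.00961 and an adjusted p of 0.707 by the authors' likelihood-ratio test. The integrin gene Itgax was at 0.33, Zbtb46 at 0.10 and Flt3 at -0.30 in the authors' deposited table.

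B cell markers were close to the lower end of detection, with 1 of 8 at 1 CPM or more and a sum of 3.40 CPM. Their median was 0.37, with 7 positive signs, and Pax5 had an unadjusted p of 0.00957 (adjusted p 0.707 by the authors' likelihood-ratio test) at 0.106 CPM, while Cd79b stood at 0.43 and 1.44 CPM. General leukocyte genes, 6 in all, had a median of 0.16 (0.04 with the trend removed), with Ptprc at 0.11, Coro1a at 0.21 and Tyrobp at 0.21 in the authors' deposited table. The 7 T cell markers summed to 10.6 CPM with a median of 0.05, and the 5 monocyte markers to 48.0 CPM with 0.14. With the trend removed, the median over the 5 T cell markers of at least 1 CPM was -0.20, a smaller set of genes. None of the 74 marker genes was called by the authors' likelihood-ratio test, and 2, Ccr7 and Pax5, had an unadjusted p under 0.05. The shares over all genes were 0.0215% called and 5.12% with an unadjusted p under 0.05 in the same test. The part of these cell types in the class II values was not tested.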

How the data were processed

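RNA of 10 mouse kidneys, grouped by the treatment in their labels, had been sequenced. FastQC 0.11.2, STAR 2.5.3a, Subread 1.4.6, featureCounts and edgeR, with build mm10, are listed in the submitters' processing notes. The sources used here give no annotation, strand setting, filter or depth. The deposited log2 fold change, the deposited mean log2 CPM, the deposited likelihood-ratio score and the deposited p-value with its adjusted p were used as they stand. They come from the authors' edgeR likelihood-ratio test of each transcript, per the file header. The adjustment, recomputed by Benjamini-Hochberg over all 85107 transcripts, equalled the deposited one to within rounding.

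Of these transcripts 83446 (98.0%) matched GENCODE vM21 (GRCm38) by identifier without version. Of the 8 representative transcripts 1 had the same version in both, so lengths and positions of the others may differ slightly from those the authors used. Outside the 8 genes the most abundant transcript was not always annotated as coding. For H2-Oa, Ctsh, Tap1, Tap2, Psmb9, Ly6c2 and Ptprc it retained an intron. For Ifi30 and Batf3 it was a processed transcript, and for Brd2 and Siglech a nonsense-mediated decay form. Dividing the size of each log2 fold change by the square root of its likelihood ratio gave the approximate standard error. The trend was fitted by loess (span 0.5, R 4.3.3) on log2 length and log2 CPM. It and the adjustment were tested on simulated data with a trend on length alone, so its level part was not tested. Python 3.11.15 (numpy 2.4.6, pandas 2.3.3, scipy 1.17.1, matplotlib 3.10.9) did the rest.

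The 8 genes and all lists were chosen with earlier results of these data known. Besides the 8 genes and the other class II chains, named genes of each list were drawn from the 4 with the smallest p and then the 2 highest in level. Rfx5, March1, March8, Sppl2a and Ifng, outside that rule, were named for their role after their values were seen. The alternatives were other adjustment sets, other representative transcripts, the removal of the trend, and a threshold of 0.1. The replicates are numbered in the labels, and nothing says that numbers pair mice.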

Additional observations from a re-analysis of the deposited data

How the results depend on the processing

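The count of called genes stayed at 0 of the 8 class II genes, and at 0 of the other pathway genes tested, under each of 7 alternatives. The adjustment was made over 1 transcript per gene, over transcripts of at least 1 CPM or over protein-coding ones. The others were the coding or the longest transcript of each gene, removal of the length and level trend, and a threshold of 0.1. Of the 59 other pathway genes, those under 1 CPM, such as H2-Eb2 and Ifng, were left out of 2 settings. These were the adjustment over transcripts of at least 1 CPM and the removal of the trend. Of the 56 single-gene values under these alternatives 50 kept their sign and side of the threshold, and adjusted p ran from 0.797 to 1. Most of these signs could not turn, because the other adjustments, the threshold of 0.1 and the coding transcript kept the same fold change. The longest transcript differed from the most abundant one for H2-Aa only. The sign turned in 6: with the trend removed, H2-Aa stood at -0.12, H2-Eb1 at -0.0805, H2-DMb1 at -0.0893, Cd74 at -0.14 and Ctss at -0.0065, since a fitted trend of 0.15 to 0.17 was subtracted, and with the longest transcript, which retains an intron, H2-Aa stood at -0.11. On the plus strand only, the numbers of the 5 genes with a match were the same (2 for the X form, 1 for the X2 core, 4 for the Y core), while H2-Aa had 1 X2 core in place of 2 and H2-Eb1 1 Y core in place of 2.

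No paired analysis was possible because the deposited table holds 1 finished comparison and no values per library, and for the same reason leaving out a replicate was not run. Class II chains are highly polymorphic between mouse strains, and how well reads of these mice matched the reference haplotype was not tested. Depth per library is unknown.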

Other observations

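Other cells of the kidney were read from the same deposited comparison. Each of 6 endothelial genes was positive as deposited and with the trend removed (medians 0.09 and 0.07). As deposited, 71.8% of all genes of at least 1 CPM were positive, with a median of 0.08. The endothelial genes were led by Emcn (0.25 at 27.7 CPM) and the VEGF receptor gene Kdr (0.19) in the authors' deposited table. Proximal tubule genes were mixed, with 4 positive and 2 negative signs among 6 and a median of 0.02, Slc5a2 at 0.30 and Lrp2 at -0.08 in the authors' deposited table. The distal genes Aqp2 (0.27) and Slc12a3 (0.18) were positive and Slc12a1 (-0.11) negative in the authors' deposited table. No endothelial or tubular gene had an unadjusted p under 0.05.

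The 5 plasma cell markers had 3 positive and 2 negative signs and a median of 0.07, from Jchain at -0.52 (3.08 CPM) to Mzb1 at 0.35 (0.953 CPM) in the authors' deposited table. Of the 5 neutrophil markers 1 was positive, 3 were negative and Ly6g was at 0, with a median of -0.02. S100a8 and S100a9 stood at -0.37 and -0.52, Csf3r at -0.02 and Retnlg, at 0.0751 CPM, at 0.79 in the authors' deposited table. None of these plasma cell and neutrophil genes had an unadjusted p under 0.05.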
